A study of Mus musculus with 6 samples.

Results

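Transcript levels of 7 genes were followed in cultured mouse cerebellar granule neurons (CGNs), 4 that encode the MEF2 transcription factors (Mef2a, Mef2b, Mef2c and Mef2d) and 3 that encode the ETV1 group of ETS factors (Etv1, Etv4 and Etv5). They were chosen by name as regulators of neuronal maturation, out of 55341 gene rows, and all 7 were among the 16343 genes that passed the filter on low counts. RNA was sequenced from 6 poly(A) libraries, 3 of cultures given the vehicle DMSO and 3 of cultures given GSK-126, a small molecule that inhibits EZH2, the enzyme that places the repressive mark H3K27me3. Both groups were granule neuron cultures from CD1-IGS mice. The study's methods describe such cells as taken from pooled litters of pups about a week old, purified on Percoll and treated with the antimitotic AraC. The labels give the agent and a replicate number, but no dose and no day, and they name the source as cerebellum. The study added GSK-126 at an earlier or a later day in separate experiments. These libraries were taken as the earlier addition from a day code in the deposited tables' names, which no label states.

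MEF2 proteins bind A/T-rich sites through a MADS domain, are held inactive by class IIa histone deacetylases, and are switched on by calcium signalling through calcineurin and CaM kinases, which links neuronal activity to synapse number and survival. ETV1, ETV4 and ETV5 share an ETS domain that binds a GGA core and an acidic activation domain, and they are known as nuclear effectors of FGF and ERK signalling that the repressor CIC keeps in check. ETV1 is known in granule neurons as an activator of genes that switch on as these cells mature.

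Library totals ranged from 8058760 to 12047837 counts, and levels are given as CPM, the count scaled to a common library size. The 12 granule neuron markers had counts in every library. No gene of the 8 cell type marker lists was at 0 in all 6 libraries, and transcripts of astrocytes, microglia, vessels and fibroblasts were measured as well. The 5 fibroblast markers summed to 6698 to 9749 CPM and the 7 astrocyte markers to 2521 to 7818 CPM. The granule neuron markers summed to 4213 to 8759 CPM, so levels cannot be assigned to neurons alone. In this bulk RNA, fewer cells of a type and less RNA per cell cannot be told apart. The comparison of GSK-126 with DMSO was set up within 3 pairs of the same replicate number, and the libraries of a pair also deviated together from their group means. It used edgeR with the replicate number as a block, and a gene was called at an adjusted p under 0.05. With the block 2735 of the 16343 tested genes had an unadjusted p under 0.05, and without it 981 had. Without that block edgeR called 0 genes (0%). Every call below therefore rests on the pairing.

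The sequence just upstream of the start is shown for Etv1, the gene called below, and for Mef2d and Mef2a, the most abundant MEF2 transcripts, because CpG-dense promoters are where EZH2 is classically recruited. Each is 250 bases before a RefSeq start (GRCm38.p6), read 5′ to 3′ on the gene's strand, with CG dinucleotides in capitals. The Etv1 window is chr12:38779832-38780081 (+), the Mef2d window chr3:88142122-88142371 (+) and the Mef2a window chr7:67372859-67373108 (-). The Mef2d and Mef2a windows end where the annotated gene begins. Both Etv1 windows lie inside the annotated gene, which begins at chr12:38779380, so the windows are not placed alike.
Etv1: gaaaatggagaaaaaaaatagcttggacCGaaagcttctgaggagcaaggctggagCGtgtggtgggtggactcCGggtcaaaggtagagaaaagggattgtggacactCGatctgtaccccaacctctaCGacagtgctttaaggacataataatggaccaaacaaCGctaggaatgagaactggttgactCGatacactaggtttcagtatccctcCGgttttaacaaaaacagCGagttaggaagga
Mef2d: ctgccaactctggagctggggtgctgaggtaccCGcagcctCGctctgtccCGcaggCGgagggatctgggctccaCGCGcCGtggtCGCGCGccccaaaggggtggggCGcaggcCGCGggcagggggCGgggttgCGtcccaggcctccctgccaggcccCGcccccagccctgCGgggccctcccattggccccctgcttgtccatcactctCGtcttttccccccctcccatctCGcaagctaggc
Mef2a: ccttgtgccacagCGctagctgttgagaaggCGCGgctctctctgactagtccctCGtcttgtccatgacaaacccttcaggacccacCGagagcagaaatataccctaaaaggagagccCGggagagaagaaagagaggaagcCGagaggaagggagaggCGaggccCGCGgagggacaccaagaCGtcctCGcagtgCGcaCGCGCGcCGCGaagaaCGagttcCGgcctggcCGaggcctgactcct
The Etv1 sequence had 9 CpGs and 46.4% G+C, the Mef2d sequence 19 and 73.2%, and the Mef2a sequence 21 and 61.6%. Across 32851 RefSeq start windows the medians were 6 CpGs and 52.4%. A second Etv1 start had 1 CpG and 44.4% G+C, and the 2 Etv5 starts had 18 and 27 CpGs. The 3 Mef2c starts had from 1 to 6 CpGs, and the single Mef2b start had 9.

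A MEF2 motif was searched on both strands as CTANNNNTAG, which reads the same on either strand, in the 300 bases around each start (250 before and 50 after). It was found in 3.69% of all windows. Among the MEF2 and ETV genes in the set of windows used (6 of 7, with 10 windows), it was found only at Mef2a. Etv4 had no window in that set and was not searched. The match overlaps the start of Mef2a and is shown in capitals, at chr7:67372841-67372870 (-).
Mef2a start: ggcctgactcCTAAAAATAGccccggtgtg
The Mef2a window was also the only one of the 10 with CCGGAA, an ETS-type sequence searched on both strands and present in 14.9% of all windows. These are matches of letters, not measured binding.

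Etv1 was lower in the GSK-126 culture of every pair. It was the only one of the 7 genes called, against 3.65% of all tested genes called in either direction and 1.42% called lower. Etv1 (ENSMUSG00000004151.17, GRCm38 chr12:38779380-38870484, + strand) stood at 134.2, 272.8 and 139.7 CPM in DMSO replicates 1, 2 and 3, and at 54.9, 135.9 and 75.9 CPM in the matching GSK-126 replicates. Replicate 2 was the highest library in both groups, and its GSK-126 value lay just above DMSO replicate 1, so the groups overlapped although each pair fell. Behind these values were 1163, 2182 and 1182 reads in the DMSO libraries and 659, 1128 and 666 reads in the GSK-126 libraries. The mean went from 182 ± 78.5 to 88.9 ± 42.1 CPM (SD, n = 3 each). The fitted log2 fold change was -1.06 (standard error, SE, 0.116, 95% interval -1.31 to -0.80, edgeR adjusted p = 0.00139), a fold of 0.480. Within pairs the log2 ratios were -1.29, -1.0 and -0.88. Without the block the estimate was -1.04 and the edgeR adjusted p was 0.814. Without replicate 2, the pair with the highest level, the blocked log2 fold change was -1.07 (edgeR adjusted p = 0.00781).

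**Figure D1:**
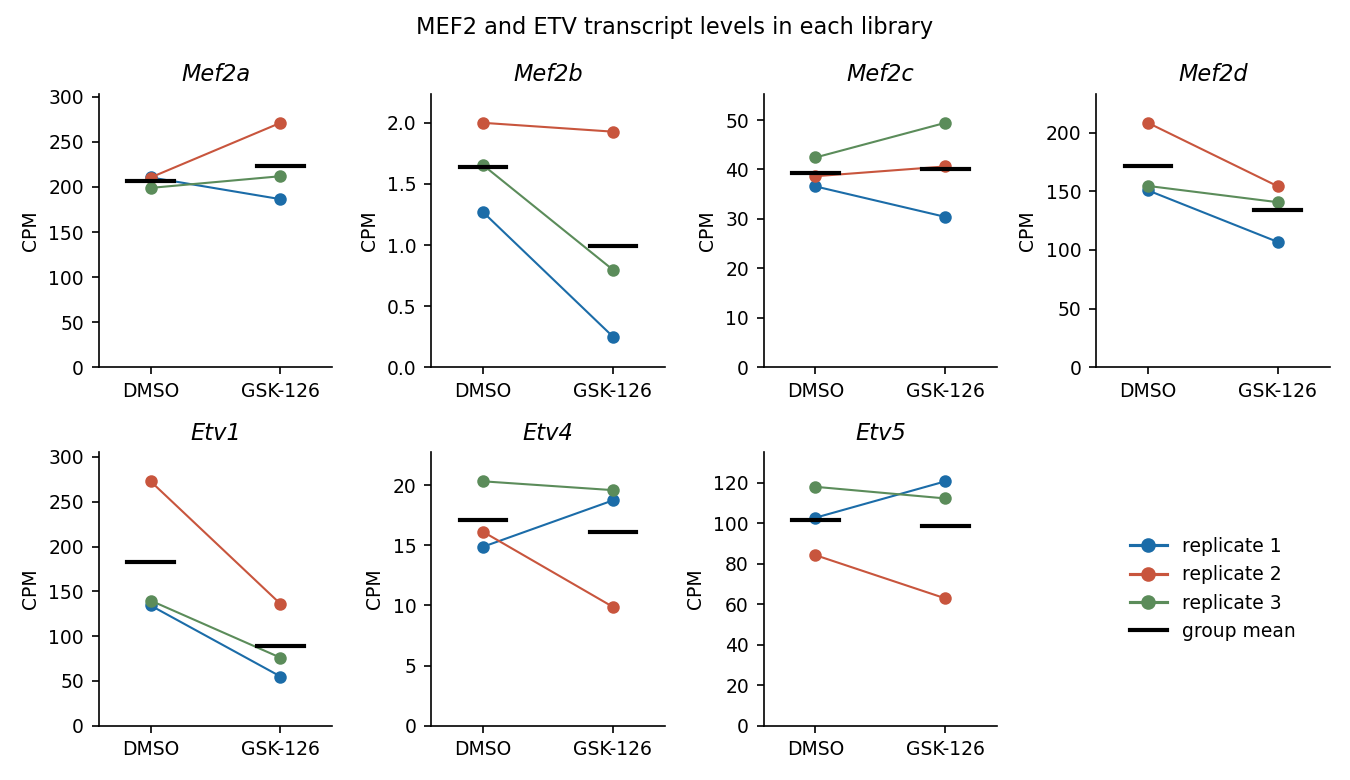
CPM of each MEF2 and ETV gene (vertical axes, each from 0) in DMSO and GSK-126 libraries, with lines joining libraries of the same replicate number and black bars at the group means. All 3 lines fall for Etv1, Mef2d and Mef2b (the last from 16 reads or fewer per library), and the lines of Mef2a, Mef2c, Etv4 and Etv5 go in both directions.

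The other ETV genes did not pass the test. Etv5 (chr16:22381309-22439719, - strand), which encodes the FGF-responsive relative of ETV1, stood at 102.8, 84.3 and 118.0 CPM with DMSO and at 120.8, 62.9 and 112.3 CPM with GSK-126. Replicate 2 was its lowest library in both groups, the reverse of Etv1, and the groups overlapped. The Etv5 log2 fold change was -0.08 (95% interval -0.37 to 0.21, edgeR adjusted p = 0.823), with pair ratios of 0.23, -0.42 and -0.07. Etv4 (chr11:101769742-101785371, - strand), the third gene of the group, was less abundant at 14.9, 16.1 and 20.3 CPM with DMSO and 18.7, 9.88 and 19.6 CPM with GSK-126. Its lowest library was GSK-126 replicate 2, and its pairs also disagreed in direction. The Etv4 log2 fold change was -0.12 (95% interval -0.59 to 0.35, edgeR adjusted p = 0.841). The Etv1 interval did not overlap those of Etv5 and Etv4, and a 2-fold fall lay outside both of theirs.

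Mef2d and Mef2a encode the MEF2 factors with the most transcript per kb in these cultures, and neither was called. Mef2d (chr3:88142372-88172086, + strand) stood at 150.9, 208.5 and 154.7 CPM with DMSO and at 106.9, 154.4 and 140.8 CPM with GSK-126. The GSK-126 library was the lower one in each pair, by log2 ratios of -0.50, -0.43 and -0.14, while the groups overlapped. The log2 fold change of Mef2d was -0.36 (95% interval -0.60 to -0.11), and its edgeR adjusted p of 0.124 missed the threshold although the unadjusted edgeR p was 0.00865. With no block and without DMSO replicate 2, the highest library, the estimate was -0.179. An annotated gene on the opposite strand, 1700113A16Rik, overlaps 8.87% of the Mef2d exons, and that gene had 91 to 155 counts per library.

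Mef2a (chr7:67231163-67372858, - strand) stood at 210.6, 210.5 and 199.0 CPM with DMSO, a narrow range, and at 186.5, 271.2 and 212.0 CPM with GSK-126. The GSK-126 libraries spread to both sides of the DMSO range, with replicate 2 highest. Its log2 fold change was 0.09 (95% interval -0.17 to 0.36, edgeR adjusted p = 0.767). Lysmd4 on the opposite strand overlaps 2.06% of the Mef2a exons.

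Mef2c and Mef2b were the scarcer MEF2 transcripts. Mef2c (chr13:83504034-83667080, + strand), whose protein is best known from forebrain neurons and microglia, stood at 36.6, 38.6 and 42.4 CPM with DMSO and at 30.4, 40.6 and 49.4 CPM with GSK-126. The GSK-126 libraries included both the lowest and the highest value of the 6. The Mef2c log2 fold change was 0.01 (95% interval -0.30 to 0.32, edgeR adjusted p = 0.983). Mef2b (chr8:70139711-70167488, + strand), a shorter gene best known from B cells, was covered by 11, 16 and 14 reads under DMSO and by 3, 16 and 7 reads under GSK-126, or 1.27, 2.00 and 1.65 against 0.250, 1.93 and 0.797 CPM. It passed the filter on low counts only through the DMSO group, and the GSK-126 replicate 1 value equals the floor of 3 counts. With so few reads, the log2 fold change of -0.94 had a 95% interval from -2.23 to 0.35 (edgeR adjusted p = 0.469), which holds both no change and a fall as large as that of Etv1. Borcs8 on the same strand overlaps 4.42% of the Mef2b exons.

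**Figure D2:**
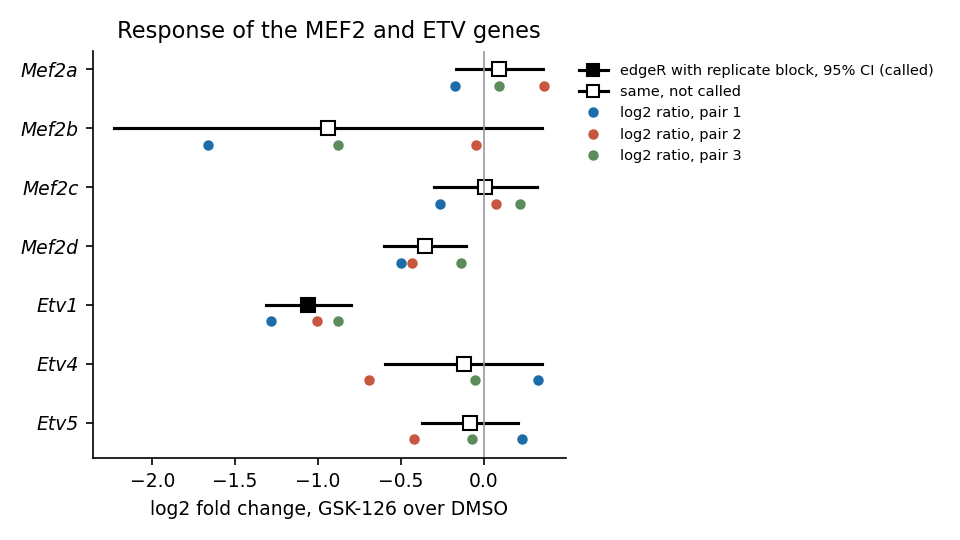
Log2 fold change of GSK-126 over DMSO (horizontal axis) for each gene, as squares with 95% intervals from edgeR with the replicate block and coloured points for the log2 ratio in each pair. Etv1 is the only filled, called square, at -1.06. The Mef2d interval lies below 0 without passing the adjusted threshold, and the Mef2b interval is the widest.

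Levels were compared between genes after division by exon length (CPM per kb), taken as the union of all annotated exons. This was 13296 bases for Etv1 and 4103 for Etv5, and the isoforms in use were not measured. In CPM with no length scaling the DMSO means were 182 for Etv1 and 102 for Etv5. They were 207 for Mef2a and 171 for Mef2d, so both orders were the reverse of those per kb. In the DMSO libraries the order was Mef2d at 28.6, Etv5 at 24.8, Mef2a at 14.1, Etv1 at 13.7, Etv4 at 5.51, Mef2c at 2.49 and Mef2b at 1.17 CPM per kb. The ranges of Mef2d and Etv5 overlapped, as did those of Mef2a and Etv1, so neither neighbouring pair could be ordered. With GSK-126 the means were 24.0 for Etv5, 22.4 for Mef2d, 15.2 for Mef2a, 6.69 for Etv1, 5.18 for Etv4, 2.55 for Mef2c and 0.706 CPM per kb for Mef2b. Etv1 then overlapped Etv4, its neighbour below, and no longer Mef2a. Among 26 ETS genes listed, Etv5 had the highest mean level per kb in both groups, while Etv1 ranked 3 with DMSO and 6 with GSK-126, and Etv4 ranked 8 and then 10.

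**Figure D3:**
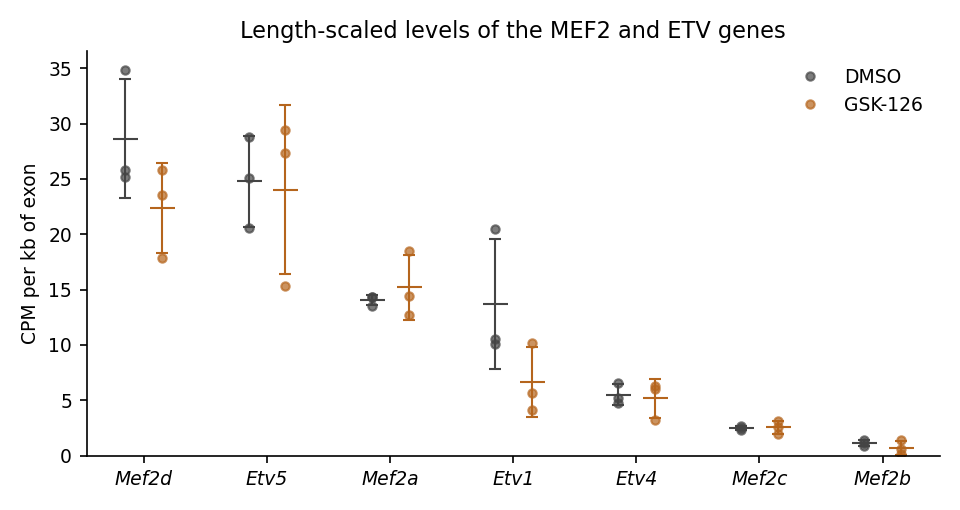
Level per kb of exon (vertical axis, CPM per kb) for each gene in order of its DMSO mean, with points for libraries and bars for the mean ± SD of 3 libraries. Etv1 drops from the level of Mef2a, near 14 CPM per kb, to that of Etv4 with GSK-126.

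Summed over each family, the ETV total was 44.0 ± 3.53 CPM per kb with DMSO (39.9 to 46.2) and 35.9 ± 6.21 with GSK-126 (28.7 to 39.6). The groups did not overlap, and the exact permutation test over 3 against 3 libraries gave its smallest possible p of 0.1, so it could not pass the threshold. Without replicate 2 the mean log2 ratio within pairs of this total was -0.115, against -0.306 with all pairs, and in CPM with no length scaling it was -0.544. The MEF2 total was 46.4 ± 5.80 with DMSO and 40.9 ± 7.81 CPM per kb with GSK-126, and these overlapped (exact permutation p = 0.4). In each pair the MEF2 total was lower with GSK-126, at 32.7 against 42.8, 48.2 against 53.1 and 41.7 against 43.3 CPM per kb, and exact sign flips within pairs gave their smallest possible p of 0.25. Its mean log2 ratio within pairs was -0.194, and it was -0.0963 without replicate 1 and -0.0856 in CPM with no length scaling.

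Mef2a made up 30.6 ± 3.31% of the MEF2 total with DMSO and 37.3 ± 2.30% with GSK-126, while Mef2d went from 61.4 ± 3.68% to 54.9 ± 1.49% (SD, n = 3 each). Neither share overlapped between groups, and each difference had an exact permutation p of 0.1, the smallest that 3 against 3 libraries allow. Shares of 1 total are tied to each other, so these are not separate results. All shares are of levels per kb and depend on the exon lengths used. Etv1 made up 30.9 ± 11.8% of the ETV total with DMSO and 20.2 ± 13.5% with GSK-126. This share was lower in each pair but overlapped between groups (exact permutation p = 0.4, and p = 0.25 by exact sign flips within pairs, the smallest that 3 pairs allow). None of the 7 genes had CPM ranges that separated the groups, against 10.9% of all tested genes.

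Among genes known to respond to ETV1 or to mark mature granule neurons, 7 of 11 were called lower and 0 higher with the block, against 1.42% of all tested genes called lower. The median log2 fold change of the 11 was -0.59, against -0.002 over all tested genes, and 4 did not pass the test. In 9 of the 11 the GSK-126 library was the lower one in all 3 pairs. No test of the list was made. It was drawn up with earlier results of these data known, so its count is no independent evidence of a direction, and 2 of its genes, Slc17a7 and Gabra6, are also in the granule neuron marker list. Of the 9 others 5 were called.

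Slc17a7, the vesicular glutamate transporter of mature granule cells, stood at 54.0, 254.9 and 59.3 CPM with DMSO and at 14.3, 39.3 and 17.2 CPM with GSK-126. Every GSK-126 library lay below every DMSO library, and replicate 2 was the highest in both groups, as for Etv1. The fitted log2 change was -2.16 (SE 0.173, edgeR adjusted p = 0.00034). Wnt7a, a secreted signal from granule neurons to mossy fibres, stood at 37.8, 51.3 and 27.4 CPM with DMSO and at 14.6, 10.6 and 8.88 CPM with GSK-126. These groups did not overlap either, and here replicate 2 was not the highest GSK-126 library. For Wnt7a the fitted log2 change was -1.75 (SE 0.194, edgeR adjusted p = 0.00151).

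Gabra6, the α6 subunit of the GABA-A receptor, fell from 102.7, 208.7 and 86.5 CPM to 33.2, 78.1 and 37.5 CPM (log2 fold change -1.42, SE 0.120, edgeR adjusted p = 0.00034). Gabrd, the δ subunit that assembles with α6 in extrasynaptic receptors, fell from 44.4, 105.6 and 64.5 CPM to 21.7, 38.9 and 26.9 CPM (log2 fold change -1.25, SE 0.131, edgeR adjusted p = 0.001). Neither gene's groups overlapped. The other 3 called genes were Cadps2, Grm4 and Kcnd2, with log2 fold changes from -0.90 to -0.57, and their groups overlapped. Tiam1, a Rac activator of dendrites and spines, had a log2 fold change of -0.50 (edgeR adjusted p = 0.0786). Grin2c, the NMDA receptor subunit NR2C that marks late granule cell maturation, stood at 8.65, 34.0 and 16.1 CPM with DMSO and at 10.4, 20.7 and 14.0 CPM with GSK-126. The pairs of Grin2c disagreed in direction, and its log2 fold change was -0.24 (95% interval -0.71 to 0.22, edgeR adjusted p = 0.630), so a fall of the size of Etv1 lay outside its interval. Opposite-strand annotation covers 1.81% of the Grin2c exons.

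**Figure D4:**
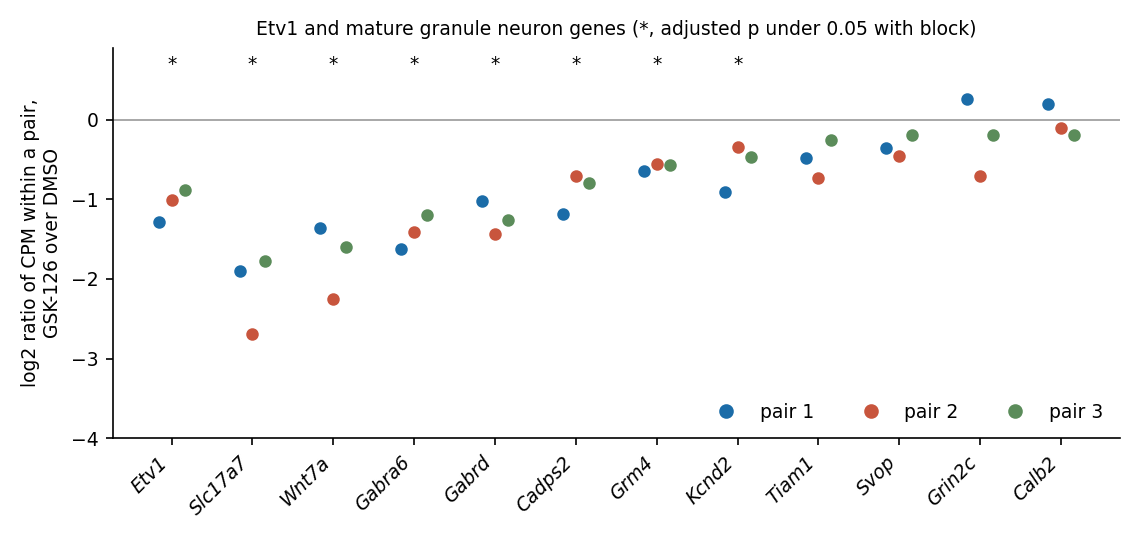
Log2 ratio of CPM within each pair, GSK-126 over DMSO (vertical axis), for Etv1 and the 11 mature granule neuron genes in order of their fitted change, with a star over the called genes. All points of the called genes lie below 0, and Grin2c and Calb2 have points on both sides.

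The regulators and partners of MEF2 mostly did not pass the test. Of 26 listed, 25 were tested, and edgeR with the block called 1 lower and 0 higher, a share near the 3.65% of all tested genes. In that fit 8 had an unadjusted p under 0.05, against 2735 of all 16343 tested genes. The median log2 fold change was -0.08. DESeq2 and limma with the block each called 2 (Camk2b besides). Without the filter on low counts edgeR called 4 (Camk2b, Camk2d and Camk4 besides), against 1136 of 28842 genes. The gene called in each of these fits was Ppp3ca, the catalytic α subunit of calcineurin, which dephosphorylates MEF2 and activates it. Ppp3ca stood at 841.2, 992.8 and 773.8 CPM with DMSO and at 461.7, 658.6 and 471.9 CPM with GSK-126, with no overlap. The fitted log2 change was -0.72 (SE 0.101, edgeR adjusted p = 0.00461). Camk4, a nuclear calcium-dependent kinase of granule neurons, had a log2 fold change of -0.42 (95% interval -0.74 to -0.10, edgeR adjusted p = 0.170). The class IIa deacetylases that repress MEF2 gave log2 fold changes of -0.09 for Hdac4 (95% interval -0.33 to 0.14) and -0.23 for Hdac5 (-0.48 to 0.01). Opposite-strand annotation covers 22.4% of the Hdac4 exons and 2.21% of those of Camk4.

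Genes known as MEF2 targets mostly did not pass the test. Of 12 tested, edgeR with the block called 1 lower and 0 higher, against 3.65% of all tested genes in either direction. In that fit 6 had an unadjusted p under 0.05, against 2735 of all 16343 tested genes. The median log2 fold change was 0.11. DESeq2 and limma with the block also called 1. Without the filter on low counts edgeR called 5 (Kcna1 and Lgi1 lower, Bdnf, Klf2 and Klf4 higher), against 1136 of 28842 genes. The called gene was Kcna1, a voltage-gated potassium channel, at 51.7, 89.0 and 57.2 CPM with DMSO and at 27.2, 56.3 and 35.6 CPM with GSK-126. Replicate 2 was again the highest in both groups, so the groups overlapped while each pair fell (log2 fold change -0.75, SE 0.122, edgeR adjusted p = 0.00897). Bdnf, the activity-induced neurotrophin, stood at 1.38, 6.13 and 3.31 CPM with DMSO and at 5.50, 8.68 and 9.45 CPM with GSK-126. It was higher in each pair, with a log2 fold change of 1.26 (95% interval 0.51 to 2.00) that missed the threshold (edgeR adjusted p = 0.0726), from 12 to 83 counts. Opposite-strand genes overlap 14.4% of its exons.

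The activity-induced genes Nr4a1 and Arc, which limit or scale excitatory synapses, had log2 fold changes of 0.03 (95% interval -0.53 to 0.59) and 0.14 (-0.77 to 1.05). Syt1, the calcium sensor of transmitter release, had a log2 fold change of -0.28 (95% interval -0.55 to -0.01, edgeR adjusted p = 0.279).

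No gene listed as an ETV regulator, an FGF receptor or an FGF-ERK output was called by edgeR with the block, against 3.65% of all tested genes. In lists of 14 genes a count of 0 cannot be set apart from that share. Of 14 ETV regulators tested 0 were called by edgeR with the block, with a median log2 fold change of 0.03. An unadjusted p under 0.05 was found for 1, against 2735 of all 16343 tested genes. Cic, the repressor of Etv1, Etv4 and Etv5, stood at 231 ± 9.32 CPM with DMSO and 240 ± 10.4 with GSK-126 (log2 fold change 0.05, 95% interval -0.17 to 0.27). Of 14 FGF receptors and FGF-ERK output genes tested 0 were called by edgeR with the block, with a median of -0.02. An unadjusted p under 0.05 was found for 3, against the same 2735 of 16343. Dusp6, the ERK phosphatase that reads out FGF signalling, had a log2 fold change of 0.16 (95% interval -0.10 to 0.43), and the feedback inhibitor Spry4 one of -0.00 (-0.36 to 0.36). DESeq2 and limma with the block called 0 of the ETV regulators and each called 1 gene of the FGF list, the ERK phosphatase Dusp5. This gene, named here after its values were seen, had an edgeR log2 fold change of -0.44 (edgeR adjusted p = 0.0521). Opposite-strand annotation covers 22.1% of the Dusp5 exons. Without the filter on low counts edgeR called 1 ETV regulator (Erbb4) and 3 genes of the FGF list (Dusp5, Fgfr4 and Spred2). That fit called 1136 of 28842 genes.

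Among 23 other ETS genes 14 were tested, 1 was called lower, against 1.42% of all tested genes, and 0 higher. The median log2 fold change was 0.24. The called gene was Ets2, a factor that ERK phosphorylates, at 51.4, 90.6 and 64.2 CPM with DMSO and 31.3, 48.2 and 45.2 CPM with GSK-126, which did not overlap. The fitted log2 change was -0.71 (SE 0.126, edgeR adjusted p = 0.0124). This call rested on replicate 2, for without it the log2 fold change was -0.59 and the edgeR adjusted p was 0.104. With the block and the filter on low counts, edgeR called 2.23% of all tested genes higher and 0 genes of these 6 lists. Without that filter Bdnf, Klf2, Klf4, Erbb4 and Fgfr4 were called higher.

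**Figure D5:**
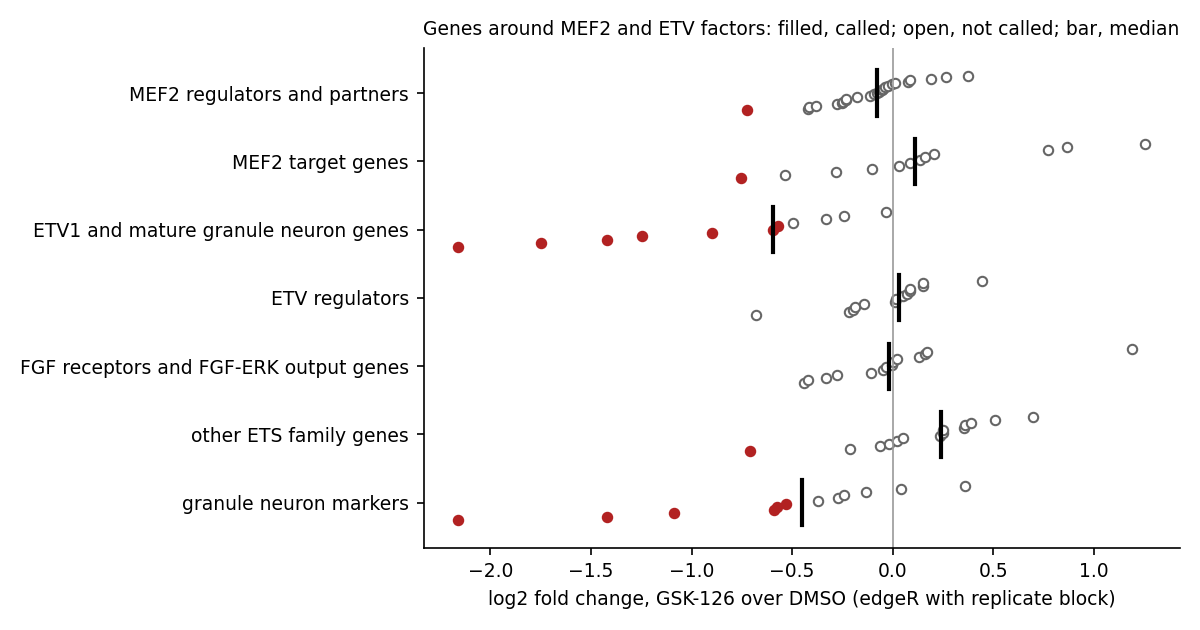
Log2 fold change, GSK-126 over DMSO (horizontal axis, edgeR with the replicate block), of the tested genes in each list, filled where called and open where not, with a bar at each median. The mature granule neuron list has 7 filled points, all below 0, and its median of -0.59 is the lowest of the lists shown.

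The pattern of Etv1 across the 6 libraries was set beside that of every tested gene by Pearson's r of log2 CPM. This is a description only, because same-numbered libraries deviated together from their group means. No label states what such libraries share. The most similar genes were Jarid2, a cofactor of the EZH2 complex (r = 0.9994), Pik3r3, a regulatory subunit of PI3 kinase (r = 0.9989), and Dgkd, a diacylglycerol kinase (r = 0.9978). Mef2d ranked 267 for likeness to Etv1 (r = 0.963), and 396 genes had r above 0.95. The pattern of Mef2a was most like those of Pyroxd1 (r = 0.9975), Fgf5 (r = 0.9958) and Skil (r = 0.9951), with 24 genes above 0.95. Mef2a ran opposite to Etv5 (r = -0.915) and Etv4 (r = -0.902).

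Cell type markers moved with the groups and with the replicate numbers. The summed level of the 12 granule neuron markers was 6051 to 8759 CPM with DMSO and 4213 to 6719 CPM with GSK-126. With the block 6 of them were called lower, against 1.42% of all tested genes, with a median log2 fold change of -0.45. The 2 with a positive estimate were Tubb3 (log2 fold change 0.36, higher in each pair) and Pax6 (0.04), neither called. Etv1 and the mature list fell with the granule neuron sum, and the part of granule neuron content in their fall was not tested. Replicate 2 had the highest granule neuron sum in both groups, as it had the highest Etv1, Slc17a7 and Kcna1, and the lowest astrocyte sum (2531 and 2521 CPM against 4004 to 7818 CPM elsewhere), as it had the lowest Etv5. The 7 astrocyte markers included 0 called genes by edgeR with the block, against 3.65% of all tested genes, and 0 by DESeq2 and limma with the block. By edgeR with the block 3 of them had an unadjusted p under 0.05, against 2735 of all 16343 tested genes.

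Genes of the other lists were called as well, where 2.23% of all tested genes were called higher and 1.42% lower. In lists of 5 to 8 genes a single call cannot be set apart from these shares. Endothelial and mural markers summed to 480 to 752 CPM with DMSO and 834 to 1036 CPM with GSK-126, with 3 of 7 tested called higher (Flt1, Pdgfrb and Acta2). Acta2 alone went from a mean of 399.9 to 618.3 CPM, while the endothelial gene Cdh5 had a log2 fold change of -0.30 and Kdr one of -0.01, neither called. Fibroblast markers summed to 6698 to 8767 and 8801 to 9749 CPM, with Col1a1 called of 5. All 5 had a positive estimate, with a median log2 fold change of 0.24, and DESeq2 and limma with the block each called 2. Microglial markers summed to 238 to 394 and 282 to 607 CPM with C1qb called of 8, oligodendrocyte lineage markers to 431 to 656 and 495 to 783 CPM with Cspg4 called of 8, and progenitor and proliferation markers to 434 to 633 and 581 to 883 CPM with Ccnd2 called of 6. Ccnd2 itself went from a mean of 229 to 431 CPM, while the proliferation genes Top2a, Mcm2, Ccnb1 and Pcna had log2 fold changes from -0.001 to 0.088 and were not called. Mki67 was higher in each pair, with a log2 fold change of 0.19, and was not called either. Cerebellar GABAergic neuron markers summed to 197 to 264 CPM with DMSO and 172 to 198 CPM with GSK-126, with Slc32a1 called lower of 7. Opposite-strand annotation covers 24.9% of the Slc32a1 exons. The part of these cell types in the values of Mef2c, which microglia also express, and of the other members was not tested.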

How the data were processed

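Poly(A) RNA of 6 CGN cultures (3 DMSO, 3 GSK-126) was sequenced. The values are read counts per gene, deposited as whole numbers without normalization. Per the study's methods the authors trimmed reads with Trimmomatic 0.38, aligned them with STAR 2.7.2b to GRCm38 and counted exons with HTSeq. The strand setting was not given in the sources used here, so reads of overlapping antisense genes cannot be told apart, and multiply aligned reads were not assigned. The files hold 5 summary rows that name no gene, of which reads over no feature were 44.8% to 46.7%. They were left out.

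All 55341 symbols were found in GENCODE M21 (GRCm38), which gave coordinates and exon lengths. Genes were filtered with filterByExpr by group, scaled with TMM factors (0.994 to 1.01) and tested in edgeR 4.0.16 (quasi-likelihood fit) with Benjamini-Hochberg adjustment over 16343 genes. DESeq2 1.42.0 and limma 3.58.1 (R 4.3.3) were alternatives. Log2 ratios within pairs used a prior count of 2. A floor of 3 counts is 0.249 to 0.372 CPM and, like all counting intervals, covers counting error only. The scripts were tested on simulated data.

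The replicate number entered the main fit as a block, because the comparison was set up as paired by that number and the methods describe a replicate as pooled litters. Deviations from the group means correlated by 0.351, 0.503 and 0.517 in same-numbered libraries and by -0.411 to -0.010 in others. Such deviations cancel within a group, so the negative values follow in part from the positive ones and add no separate evidence of pairing. The methods name DESeq2 without model terms. P-values of the fits with the block measure how alike the change was across pairs, after the differences between replicate numbers are taken out. Those of the fits without the block measure the spread between these cultures. No 2 libraries agreed within sampling noise.

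The genes and lists were chosen with earlier results of these data known. By rule, values were given for the 7 genes, up to 4 called genes of each list (by size of change), 13 genes fixed by name and the 3 most similar patterns. Other list and marker genes, such as Cadps2 and Dusp5, were named after their values were seen. Some genes of these lists are not reported here.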

Additional observations from a re-analysis of the deposited data

How the results depend on the processing

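The pairing decided every call. With no replicate block edgeR called 0 genes of all, 0 of the 7 MEF2 and ETV genes, 0 of the listed genes and 0 of the mature granule neuron genes, and the log2 fold change of Etv1 was -1.038, close to its paired value. The common biological coefficient of variation was 0.142 with the block and 0.243 without. In all 8 fits with the block Etv1 and the 4 leading mature genes were called. Without a filter on low counts 1136 genes and 22 listed genes were called, and Bdnf (edgeR adjusted p = 0.00159), Camk4 and Tiam1 were then among them. Without replicate 2 the count of called genes was 178, and without replicate 3 it was 359, against 597 with all pairs.

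Leaving out pairs, or single libraries with no block, moved the count of all called genes between 0 and 704, of the 7 genes between 0 and 1, of listed genes between 0 and 12 and of mature genes between 0 and 7. Log2 fold changes over these fits ran from -1.48 to -0.616 for Etv1, with -0.616 when DMSO replicate 2 was left out with no block. Leaving out that library with no block also gave smaller falls for Mef2d (-0.179), Slc17a7 (-1.26), Gabra6 (-0.925), Kcna1 (-0.448), Ets2 (-0.467) and Tiam1 (-0.330), and -0.000416 for Hdac5. Without replicate 1, Camk4 was at -0.189 and Mef2b at -0.485, and without replicate 2 Mef2b was at -1.56. They crossed 0 for Mef2a (-0.053 to 0.229), Mef2c (-0.146 to 0.199), Etv4 (-0.351 to 0.163), Etv5 (-0.238 to 0.197), Arc (-0.131 to 0.442), Dusp6 (-0.025 to 0.368), Grin2c (-0.734 to 0.288), Nr4a1 (-0.458 to 0.663) and Spry4 (-0.065 to 0.0904), so no direction is given for these. Nr4a1 also changed sign with no replicate block (-0.0917) and in limma with the block (-0.0487). Spry4 did so with no block (0.00286), with DESeq2 size factors (0.00218), in DESeq2 (0.00177), in limma (0.00296) and without the filter (0.00656). The cause of these changes was not tested. Depth limited Mef2b, with 3 to 16 counts per library.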
